A study of Homo sapiens with 6 samples.

Results

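The genes of sphingolipid synthesis and breakdown were followed by RNA-Seq in A549 cells after KMT9α knock-down. The set held 35 genes among the 23180 gene symbols counted. Its genes were named from what the pathway is known to contain, with earlier results of these data already known. The set covers enzymes that make and degrade ceramide, sphingomyelin, simple glycosphingolipids and sphingosine phosphate, but not all of them. It also holds the ceramide carrier COL4A3BP and the fatty acid hydroxylase FA2H. Each gene was read from its transcript with most counts over the 6 samples together, and all 35 genes were found.

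KMT9α, encoded by N6AMT1, is the catalytic subunit of the histone methyltransferase KMT9, and the RNA-Seq experiment asked which transcripts change when it is lost. A549 is an established human lung adenocarcinoma cell line with a wild-type label for genotype, used here at passage 11. Of the 6 samples, 3 were transfected with the control siRNA siControl and 3 with siKMT9α#1, an siRNA against KMT9α, with the same reagent and the same final siRNA concentration, and total RNA was taken 3 days later. Only 1 siRNA sequence against KMT9α was sequenced, so effects of the loss of KMT9α and effects of that siRNA sequence cannot be told apart. Its target lies in exon 3 of the annotated N6AMT1 transcript, on the minus strand of chromosome 21 from 30254500 to 30254524 in GRCh37, and starts at its base 292. The site is shown 5′ to 3′ because its end pairs with the seed of the guide strand, and capitals mark the 7 bases that pair with guide bases 2 to 8.
siKMT9α#1 target in N6AMT1: acgctgtaacaaagttcACATTCAa

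Sphingolipids are built on a long-chain base that serine palmitoyltransferase makes from serine and a fatty acyl-CoA in the endoplasmic reticulum. Ceramide synthases attach a second fatty acid, a desaturase completes ceramide, and ceramide then receives a head group, either phosphocholine to give sphingomyelin or sugars to give glycosphingolipids. Breakdown, much of it in lysosomes, returns ceramide and then sphingosine, which is either reused or phosphorylated to sphingosine phosphate, a signalling lipid whose cleavage by a lyase is the only way out of the pathway.

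The knock-down was visible in the RNA: N6AMT1 was at 10.2, 10.9 and 11.4 CPM (read counts per sample scaled to a common library size by the TMM method) with siControl and at 2.87, 3.22 and 3.35 CPM with siKMT9α#1. Samples held 13740097 to 19832395.5 counts at 1 transcript per gene, and the 35 genes took 0.235% to 0.285% of them. Replicates of a group differed far less than the groups did, the chi-square averaged over genes being 1.34 to 5.15 for pairs within a group and 104.5 to 141.3 for pairs across groups. Of 5 epithelial markers, KRT8, KRT18, KRT19 and EPCAM were lower and CDH1 was higher with siKMT9α#1, and their summed level was 3215 to 3576 CPM with siControl and 1725 to 1815 CPM with siKMT9α#1. The summed levels of 4 lung lineage markers and of 3 endothelial markers were under 1 CPM in every sample. Those of 3 leukocyte and 3 fibroblast markers were 1.66 to 4.52 CPM, almost all of it CD14 and COL1A1, which were both lower with siKMT9α#1, while CD3E and COL1A2 were at 0 throughout. The part of these markers in the results was not tested. In bulk RNA, fewer cells with a transcript and less of that transcript per cell cannot be told apart.

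Upon KMT9α knock-down, acid ceramidase ASAH1 and the galactosyltransferase UGT8 fell. FA2H rose, as did the lactosylceramide synthase B4GALT6, the ceramidase ACER2 and the reductase KDSR. Each of these changes was at least 1 on the log2 scale with TMM scaling and all 6 samples. In the hg19 coordinates of the deposited transcripts, ASAH1 spans 17913925 to 17941879 on chromosome 8 and UGT8 spans 115519611 to 115598202 on chromosome 4. FA2H spans 74746856 to 74808729 on chromosome 16, ACER2 spans 19408925 to 19452500 on chromosome 9, and B4GALT6 and KDSR lie on chromosome 18 from 29202209 to 29264686 and from 60994971 to 61034506. Of these 6 genes, UGT8 and ACER2 are on the plus strand and the others on the minus strand, and none shared exonic bases with another annotated gene. Of the 35 genes, 33 had enough counts to be tested, and DEGS2 and SGPP2 did not, with 28 and 46 counts over all samples. The quasi-likelihood test of edgeR was run on 13877 genes, with p adjusted over all of them by the Benjamini-Hochberg method, and at an adjusted p under 0.05, 18 of the 33 were higher with siKMT9α#1, 8 were lower and 7 were not called. Over all genes tested 75.6% were called, 37.1% higher and 38.5% lower, so the 26 called genes of 33 were near the share of the whole transcriptome. A log2 fold change of at least 1 was called for 4 higher and 2 lower genes, against a background of 20.4% of all genes tested, 10.1% higher and 10.3% lower. Expression in the 3 siKMT9α#1 samples lay wholly above or below that in the 3 siControl samples for 26 genes, as for 77% of all genes tested. At the threshold of the study, an unadjusted P under 1e-08 with a log2 fold change beyond 0.26 in either direction, 10 of the 33 genes passed. The higher ones were KDSR, CERS2, FA2H, B4GALT6, GALC, ACER2 and ACER3, and the lower ones were SGMS2, GLA and ASAH1, against a background of 24.2% of genes tested, 13.5% higher and 10.7% lower. The count among the 33 genes was 22 with edgeR's likelihood-ratio test, 22 with its exact test, 22 with no filter, and 18 with DESeq2 or with GC content and length offsets. Over all genes, 3357 of 13877 passed in the main fit, 5962 with the likelihood-ratio test, 5924 with the exact test and 4773 with DESeq2. With no filter 6070 of 18751 passed, and with the offsets 4336 of 13652. Without siControl replicate 1, 16 of the 33 genes passed the threshold, and 4085 of 13977 genes tested.

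**Figure D1:**
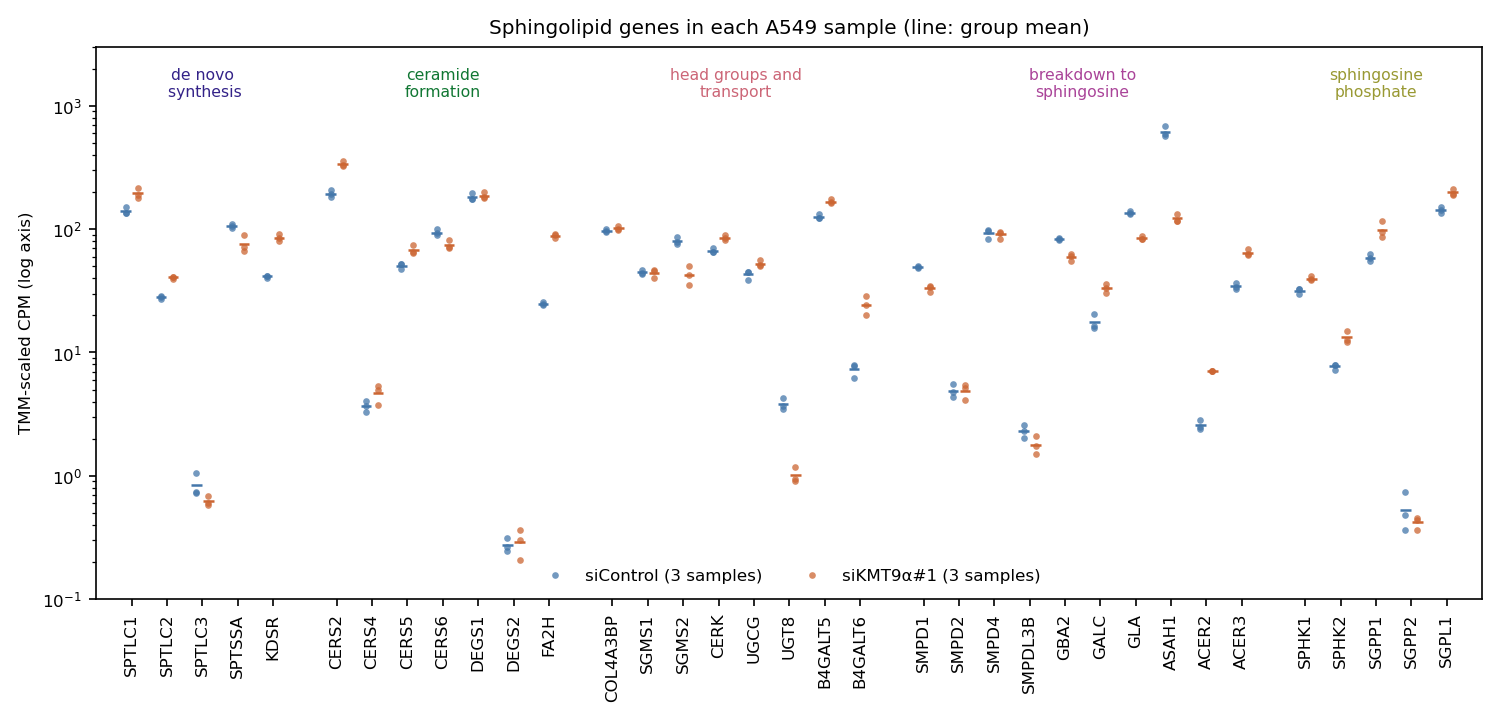
TMM-scaled CPM on a log axis for each of the 35 genes in pathway order, with 1 point per sample, siControl in blue and siKMT9α#1 in orange, and a line at each group mean. ASAH1 drops from a mean of 609.9 to 122 CPM, while FA2H, B4GALT6 and ACER2 move up with no overlap between groups.

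The median log2 fold change of the 33 genes was 0.32, and that of all genes tested was -0.01. Sizes of change were alike, with a median absolute log2 fold change of 0.47 for the 33 genes and 0.47 for all genes. With library size in place of TMM the medians were 0.22 and -0.12, and with offsets for GC content and transcript length that of the 33 genes was 0.19. By role, the median was highest for sphingosine phosphate metabolism at 0.61 and lowest for breakdown to sphingosine at -0.18.

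**Figure D2:**
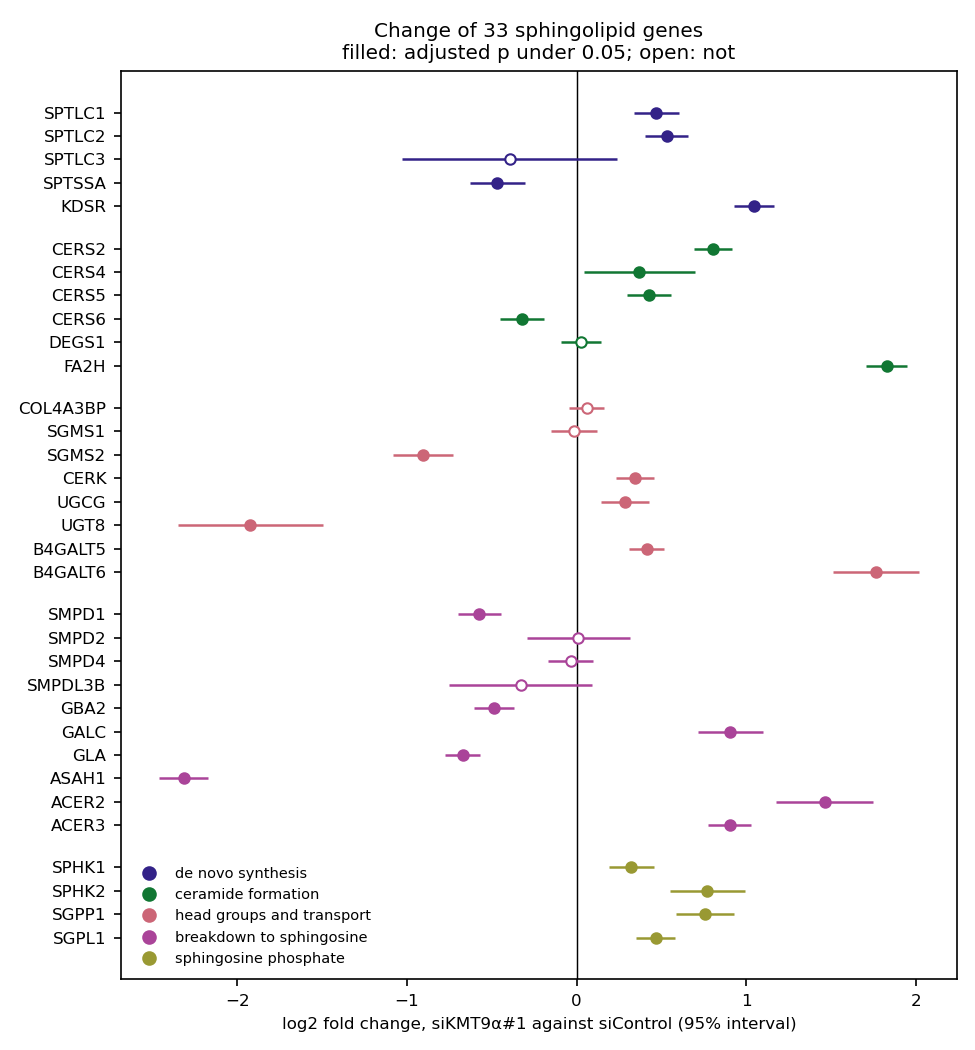
Log2 fold change of siKMT9α#1 against siControl with its 95% confidence interval for the 33 tested genes, ordered and coloured by role, filled where the adjusted p was under 0.05. The 4 tested sphingosine phosphate genes all lie to the right of 0, whereas breakdown to sphingosine runs from -2.32 for ASAH1 to 1.46 for ACER2.

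Of the 5 de novo synthesis genes, 3 were called higher upon KMT9α knock-down, 1 was called lower and 1 was not called, where 37.1% of all genes tested were higher and 38.5% lower. SPTLC1, the shared subunit of serine palmitoyltransferase, was at 151, 136 and 134 CPM with siControl and 178, 190.5 and 216 CPM with siKMT9α#1. Its catalytic partner SPTLC2 was at 28.8, 28.0 and 27.4 CPM with siControl and 41.0, 39.8 and 41.0 CPM with siKMT9α#1. Neither gene's groups overlapped. Log2 fold changes were 0.47 for SPTLC1 (SE 0.06, adjusted p = 1.86e-06) and 0.53 for SPTLC2 (SE 0.06, adjusted p = 1.61e-07). With GC content and length offsets, SPTLC2 moved to 0.19. A shorter SPTLC1 transcript, NM_178324, had a log2 fold change of 0.16 in a fit of every transcript and was not called (adjusted p = 0.0661). KDSR, which reduces the first ketone intermediate, was at 42.0, 41.7 and 40.5 CPM with siControl and 80.8, 84.3 and 90.8 CPM with siKMT9α#1. Every knock-down sample lay far above the controls, and the gene was 2.07-fold higher (log2 fold change 1.05, SE 0.06, adjusted p = 2.85e-12). The log2 fold change of KDSR was 0.94 with library size alone and 0.90 with GC content and length offsets. SPTSSA, the small subunit that activates the transferase, was the lower gene, at 105.8 ± 3.89 CPM (SD, n = 3) with siControl and 75.9 ± 12.4 CPM with siKMT9α#1 (log2 fold change -0.47, adjusted p = 2.18e-05). SPTLC3, a catalytic subunit of more restricted expression, was at or under 1.05 CPM in all samples and was not called although its groups did not overlap (log2 fold change -0.39, 95% interval -1.03 to 0.24).

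Of the genes that form ceramide, 4 of the 6 tested were higher, 1 was lower and 1 was not called. The shares over all genes tested were 37.1% higher and 38.5% lower. CERS2, the ceramide synthase for very long acyl chains, was at 207, 183 and 193 CPM with siControl and at 332, 327 and 358 CPM with siKMT9α#1. It was 1.75-fold higher (log2 fold change 0.80, SE 0.05, adjusted p = 7.53e-11), with a wide gap between the groups. CERS5, which like CERS6 prefers palmitoyl chains, rose by 0.43 on the log2 scale, from 50.6 ± 2.64 to 67.8 ± 5.22 CPM (SD, n = 3 each, adjusted p = 4.61e-06). CERS6 went the other way, from 93.7 ± 5.74 to 74.7 ± 6.12 CPM, a log2 fold change of -0.32 (adjusted p = 9.79e-05) that was -0.54 with GC content and length offsets. CERS4, at 3.68 ± 0.38 and 4.70 ± 0.81 CPM, was called higher (0.37, adjusted p = 0.0389), but its groups overlapped, and with GC content and length offsets its log2 fold change was 0.62. The call was lost with library size alone (adjusted p = 0.133), with DESeq2 (0.104) and without siControl replicate 1 (0.106), siControl replicate 2 (0.0586), siKMT9α#1 replicate 2 (0.0954) or siKMT9α#1 replicate 3 (0.203).

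DEGS1, the desaturase that turns dihydroceramide into ceramide, was at 197, 176 and 177 CPM with siControl and 181, 179 and 199 CPM with siKMT9α#1. The groups overlapped, and the log2 fold change of 0.03 had a 95% interval of -0.09 to 0.14 (adjusted p = 0.687). With GC content and length offsets it was 0.15 and called (adjusted p = 0.00772). DEGS2, the related desaturase and hydroxylase, had between 0.21 and 0.37 CPM in every sample. FA2H adds a hydroxyl group to the fatty acid that is then built into ceramide and its products, among them the galactosylceramides of myelin. It was at 24.7, 24.5 and 25.6 CPM with siControl and at 91.5, 84.6 and 89.8 CPM with siKMT9α#1. The groups were far apart and each was tight. FA2H was 3.55-fold higher (log2 fold change 1.83, SE 0.06, adjusted p = 1.15e-15), and 2.33% of all genes tested rose further.

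Genes of head group addition moved in both directions, with 4 of 8 higher, 2 lower and 2 not called. Over all genes tested, 37.1% were higher and 38.5% lower. COL4A3BP, which carries ceramide from the endoplasmic reticulum to the Golgi, had a log2 fold change of 0.06 (95% interval -0.04 to 0.16, adjusted p = 0.266). SGMS1, the main Golgi sphingomyelin synthase, was at 46.9, 43.8 and 43.2 CPM with siControl and 39.9, 46.04 and 46.4 CPM with siKMT9α#1. These groups overlapped, and the log2 fold change was -0.01 (95% interval -0.15 to 0.12, adjusted p = 0.854). SGMS2, the sphingomyelin synthase found mainly at the plasma membrane, fell from 80.4 ± 4.94 to 42.4 ± 7.40 CPM (SD, n = 3 each, log2 fold change -0.91, adjusted p = 1.06e-08). The log2 fold change of SGMS2 was -1.01 with library size alone and -1.07 with GC content and length offsets. CERK, which phosphorylates ceramide itself, was higher by 0.34 on the log2 scale (adjusted p = 1.08e-05), or 0.19 with GC content and length offsets.

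UGCG, which makes glucosylceramide and so opens the way to most glycosphingolipids, was at 45.1, 45.3 and 39.0 CPM with siControl and 50.03, 51.0 and 56.2 CPM with siKMT9α#1. The increase was small but without overlap, with a log2 fold change of 0.29 (SE 0.07, adjusted p = 0.000779), which was 0.18 with library size alone and 0.48 with GC content and length offsets. UGT8 makes the other simple glycolipid, galactosylceramide, and was at 4.25, 3.71 and 3.48 CPM with siControl. It fell to 0.907, 1.17 and 0.942 CPM with siKMT9α#1, well below every control sample. Its log2 fold change was -1.92 (SE 0.20, adjusted p = 6.2e-08) on 251.5 counts in all, and 2.46% of genes tested fell further. FA2H and UGT8, which both take part in making hydroxylated galactosylceramide, thus changed in opposite directions. B4GALT5 and B4GALT6 both add galactose to glucosylceramide to give lactosylceramide. B4GALT5, the more abundant per kilobase of transcript, rose from 125.7 ± 5.75 to 167 ± 6.30 CPM (SD, n = 3 each, log2 fold change 0.41, adjusted p = 4.14e-07), or by 0.20 on the log2 scale with GC content and length offsets. B4GALT6 was at 7.91, 7.72 and 6.24 CPM with siControl and 20.3, 24.4 and 28.7 CPM with siKMT9α#1. It was 3.40-fold higher (log2 fold change 1.77, SE 0.12, adjusted p = 1.15e-10), and every knock-down sample exceeded every control sample.

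The breakdown genes moved in both directions, with 3 of 10 higher, 4 lower and 3 not called, against 37.1% higher and 38.5% lower over all genes tested. SMPD1, the lysosomal acid sphingomyelinase, fell from 49.4 ± 0.95 to 33.2 ± 1.97 CPM (SD, n = 3 each, log2 fold change -0.57, adjusted p = 6.19e-08). The neutral sphingomyelinases SMPD2 and SMPD4 were not called, with log2 fold changes of 0.01 (95% interval -0.29 to 0.32) and -0.03 (95% interval -0.17 to 0.10). With GC content and length offsets SMPD4 was at -0.12 and was called (adjusted p = 0.0461). SMPD4 was read from transcript NR_033230. Its other transcripts lay on the other side of 0, at 0.085 to 0.095 in a fit of every transcript, and were not called. SMPD2 shares 21.8% of its exonic bases with PPIL6 on the opposite strand, and SMPD4 shares 5.66% with MZT2B on the opposite strand. Whether the counting used the strand is not given in the sources used here. SMPDL3B, an acid sphingomyelinase-like protein of the plasma membrane, was not called at -0.33 (adjusted p = 0.145), although its shorter transcript NM_001009568 was lower by 0.69 on the log2 scale (adjusted p = 0.00567 in a fit of every transcript).

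Among the enzymes that remove sugars, GBA2, the non-lysosomal glucosylceramidase, fell from 83.1 ± 1.85 to 59.6 ± 4.12 CPM (SD, n = 3 each, log2 fold change -0.48, adjusted p = 2.25e-07). GLA, the lysosomal alpha-galactosidase deficient in Fabry disease, fell from 135 ± 4.24 to 84.9 ± 3.17 CPM (log2 fold change -0.67, adjusted p = 3.19e-10). GALC, the galactosylceramidase deficient in Krabbe disease, rose from 17.7 ± 2.56 to 33.04 ± 2.86 CPM (log2 fold change 0.91, adjusted p = 3.03e-08). The lysosomal enzymes of the set were therefore not of 1 direction, with SMPD1, GLA and ASAH1 lower and GALC higher.

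ASAH1 cleaves ceramide to sphingosine in the lysosome and had the largest fall of the 33 tested genes. It was at 680, 564 and 586 CPM with siControl and at 116, 117 and 133 CPM with siKMT9α#1. All 3 knock-down samples lay far below the lowest control sample. ASAH1 was 4.98-fold lower (log2 fold change -2.32, SE 0.07, adjusted p = 6.36e-16), and 1.28% of genes tested fell further. Its 3 transcripts, which cover nearly the same span and are not independent readings, gave log2 fold changes between -2.34 and -2.32. Both alkaline ceramidases with counts rose. ACER2, the Golgi enzyme, was at 2.81, 2.47 and 2.39 CPM with siControl and 7.10, 7.02 and 7.11 CPM with siKMT9α#1. The knock-down samples were close to each other and all above the controls (log2 fold change 1.46, SE 0.14, adjusted p = 1.02e-08). ACER3, which prefers unsaturated long-chain ceramides, rose from 34.6 ± 1.90 to 64.5 ± 3.73 CPM (log2 fold change 0.90, adjusted p = 1.04e-10).

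All 4 tested genes of sphingosine phosphate metabolism were called higher, where 37.1% of all genes tested were higher. Of these 4, 0 passed the threshold of the study. SPHK1, a cytosolic sphingosine kinase, was at 30.1, 32.5 and 32.7 CPM with siControl and 41.6, 39.2 and 38.6 CPM with siKMT9α#1. Its groups were separate and its log2 fold change was 0.32 (SE 0.06, adjusted p = 0.000129), or 0.55 with GC content and length offsets. SPHK2, the largely nuclear and mitochondrial kinase, was at 7.70 ± 0.41 and 13.3 ± 1.47 CPM (SD, n = 3 each, log2 fold change 0.77, adjusted p = 2e-06). It shares 6.88% of its exonic bases with DBP on the opposite strand. SGPP1, which dephosphorylates sphingosine phosphate back to sphingosine, rose from 58.8 ± 4.06 to 98.8 ± 15.6 CPM (log2 fold change 0.76, adjusted p = 9.52e-08), while its relative SGPP2 did not exceed 0.741 CPM in any sample. SGPL1, the lyase that ends the pathway, was at 152, 136 and 143 CPM with siControl and 189, 195 and 213 CPM with siKMT9α#1. The lowest knock-down sample was above the highest control, and the log2 fold change was 0.47 (SE 0.06, adjusted p = 3.01e-07), or 0.19 with GC content and length offsets. The kinases, SGPP1 and the lyase, which act on the lipid in opposing senses, were thus all higher. This holds for the 4 tested genes of the set only. Of 9 further tested genes for sphingosine phosphate receptors, transport and phosphatases, 3 were higher and 4 lower. Over all genes tested, 37.1% were higher and 38.5% lower.

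Levels were also compared between genes as CPM per kilobase of transcript. With siControl, ASAH1 stood first at 235 CPM per kilobase, followed by GLA at 96.3 and DEGS1 at 89.8, which overlapped in range, then CERS2 at 77.0 and SPTLC1 at 51.1. With siKMT9α#1 the order was CERS2 at 134, DEGS1 at 91.4, SPTLC1 at 70.8, GLA at 60.4 and ASAH1 at 47.1 CPM per kilobase, with no overlap between these neighbours. FA2H moved from rank 21 at 10.3 to rank 6 at 36.7 CPM per kilobase, where its range overlapped those of B4GALT5, CERS5, SGPL1, SPTSSA and SGPP1. DEGS2, SPTLC3 and SGPP2 were under 1 CPM per kilobase in both groups.

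**Figure D3:**
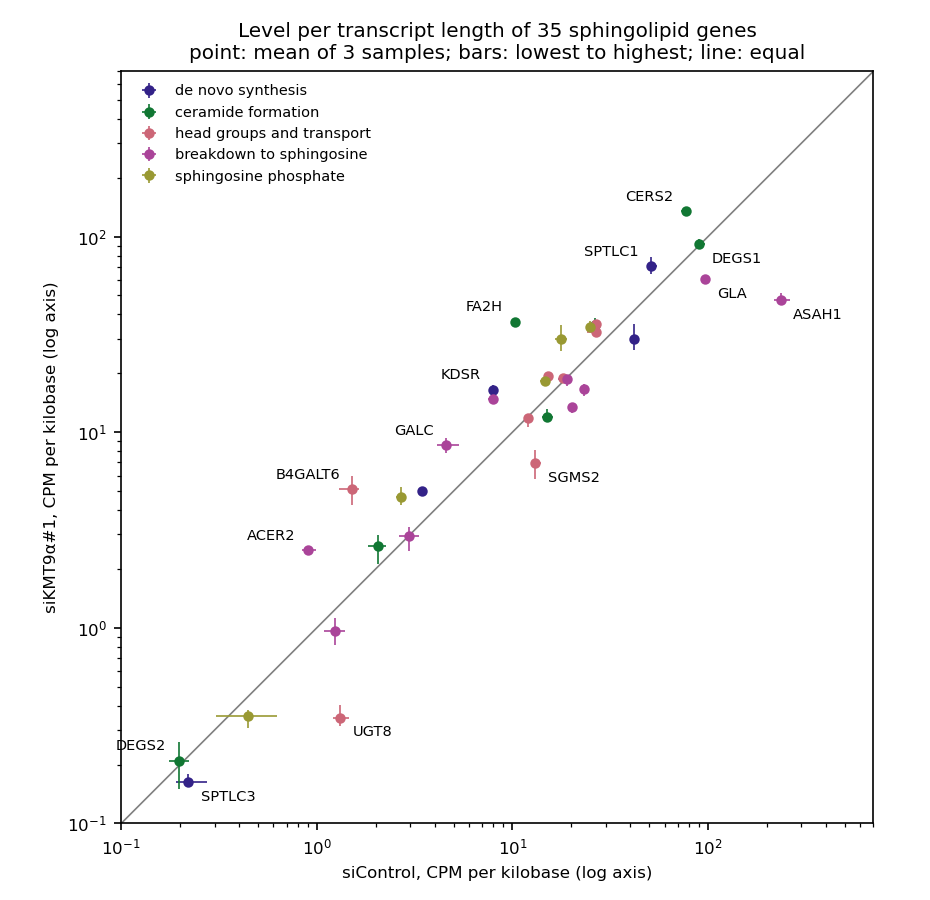
Mean CPM per kilobase of transcript in siControl (horizontal, log axis) and siKMT9α#1 samples (vertical, log axis) for the 35 genes, with bars from the lowest to the highest of 3 samples and a line of equal levels. ASAH1 lies furthest to the right and under the line, and FA2H, B4GALT6 and ACER2 lie well above it.

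ASAH1 alone held 24.6%, 22.3% and 23.0% of the counts of the 35 genes with siControl, and 4.78%, 4.73% and 4.97% with siKMT9α#1. The other 34 genes together took 0.203% to 0.215% of all counts with siControl and 0.224% to 0.246% with siKMT9α#1, so their sum was slightly higher in each knock-down sample. Summed over ASAH1, ACER2 and ACER3, ceramidase level was 272, 226 and 235 CPM per kilobase with siControl and 61.7, 61.8 and 69.7 with siKMT9α#1. The share of ASAH1 in that sum went from 96.3% to 96.6% in the controls to between 72.8% and 73.8%, and the gains of ACER2 and ACER3 were small beside its loss.

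The 7 bases ACATTCA, which pair with bases 2 to 8 of the siKMT9α#1 guide strand, occur in the 3′ UTR of 6 of the 33 tested genes, or 18.2%, and in 11.6% of 12884 tested genes with an annotated 3′ UTR. A site is shown on the transcript strand for 5 of the 6 genes, with those 7 bases in capitals at the GRCh37 positions named.
SPTLC2, chr14:77975468-77975474, minus: cactatcgtaaACATTCAtgatagggcaa
CERS6, chr2:169628752-169628758, plus: ccttcctggtcACATTCAaaccttcccag
CERK, chr22:47080800-47080806, minus: gccacctgctgACATTCAgaatctcagac
GBA2, chr9:35736908-35736914, minus: tttccccaggtACATTCAtggtgtgacag
GALC, chr14:88400838-88400844, minus: tgtgttccctaACATTCAaactgtgcatt
ASAH1, whose sequence is not shown, holds 1 such site, and SPTLC2 holds 3, of which the first is given. Of the 6 genes, SPTLC2, CERK and GALC were higher and CERS6, GBA2 and ASAH1 were lower. Their median log2 fold change was 0.01, and that of the tested genes of the set without a site was 0.32. Over all genes it was -0.21 with a site and 0.00 without, and the part of the seed match in the result for ASAH1, CERS6 and GBA2 was not tested.

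Promoters from RefSeq, 250 bases before to 50 bases after the transcription start in GRCh38.p14, matched 28 of the 35 genes. The GC box GGGCGG, read on both strands, was in 23 of these 28 and in 44.6% of 27305 promoters. CCAAT was in 7 of 28 (35.7% of all), the E-box CACGTG in 1 of 28 (7.4% of all) and TATAAA in 0 of 28 (12.0% of all). The promoters of FA2H and UGT8 are given because both genes take part in making hydroxylated galactosylceramide and changed in opposite directions. Capitals mark every GC box, CCAAT and E-box on either strand, and the sequences run 5′ to 3′ on the strand of the gene.
FA2H, chr16:74774771-74775070, minus: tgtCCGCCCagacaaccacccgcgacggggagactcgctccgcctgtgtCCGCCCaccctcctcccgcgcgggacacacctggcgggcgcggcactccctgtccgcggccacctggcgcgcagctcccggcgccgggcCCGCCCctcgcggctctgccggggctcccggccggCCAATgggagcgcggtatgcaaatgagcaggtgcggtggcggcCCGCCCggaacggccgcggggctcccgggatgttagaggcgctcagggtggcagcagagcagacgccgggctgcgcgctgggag
UGT8, chr4:114598152-114598451, plus: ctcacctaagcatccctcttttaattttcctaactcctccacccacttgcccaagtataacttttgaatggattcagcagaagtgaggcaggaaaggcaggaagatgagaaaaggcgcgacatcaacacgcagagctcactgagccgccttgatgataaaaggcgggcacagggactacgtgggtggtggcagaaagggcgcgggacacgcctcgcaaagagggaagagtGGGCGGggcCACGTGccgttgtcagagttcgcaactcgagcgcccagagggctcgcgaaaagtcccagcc
FA2H has 4 GC boxes and 1 CCAAT. UGT8 has 1 GC box beside the single CACGTG found among the 28 promoters. These matches describe letters only, and no binding was measured in these samples.

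A further 56 genes of sphingolipid metabolism were read from the same fit, of which 46 were tested, 18 were higher and 18 were lower, against 37.1% and 38.5% of all genes tested, with a median log2 fold change of -0.09. The ORMDL proteins restrain serine palmitoyltransferase, and the RNA of all 3 ORMDL genes was lower. Log2 fold changes were -0.22 for ORMDL1, -0.36 for ORMDL2 and -0.61 for ORMDL3. Of the transferase itself, SPTLC1 and SPTLC2 were higher and the activating subunit SPTSSA was lower (-0.47). Of 9 tested genes that elongate acyl chains, 6 were higher and 3 lower. ELOVL5, an elongase of polyunsaturated chains, was at 479, 417 and 421 CPM with siControl and 44.1, 40.8 and 48.0 CPM with siKMT9α#1 (log2 fold change -3.30, adjusted p = 5.04e-18). ELOVL4, which makes the longest chains, went from 20.8 ± 1.00 to 5.22 ± 0.66 CPM (log2 fold change -1.99), and HACD3, a dehydratase of the elongation cycle, from 107 ± 10.3 to 444 ± 25.6 CPM (log2 fold change 2.05).

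Among the further genes of complex glycosphingolipid synthesis, 4 of 6 tested were called higher and 0 lower. Over all genes tested the shares were 37.1% and 38.5%. Of the 6 genes, 2 passed the threshold of the study. ST3GAL5, which turns lactosylceramide into the ganglioside GM3, was at 41.4, 42.2 and 37.1 CPM with siControl and 149.5, 156 and 159 CPM with siKMT9α#1 (log2 fold change 1.95, adjusted p = 3.32e-16). Of 12 further genes listed under lysosomal breakdown, not all of them lysosomal proteins, 8 were lower, 1 was higher and 3 were not called. Over all genes tested, 38.5% were lower and 37.1% higher. The higher gene was GLB1, the lysosomal beta-galactosidase (log2 fold change 0.89).

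**Figure D4:**
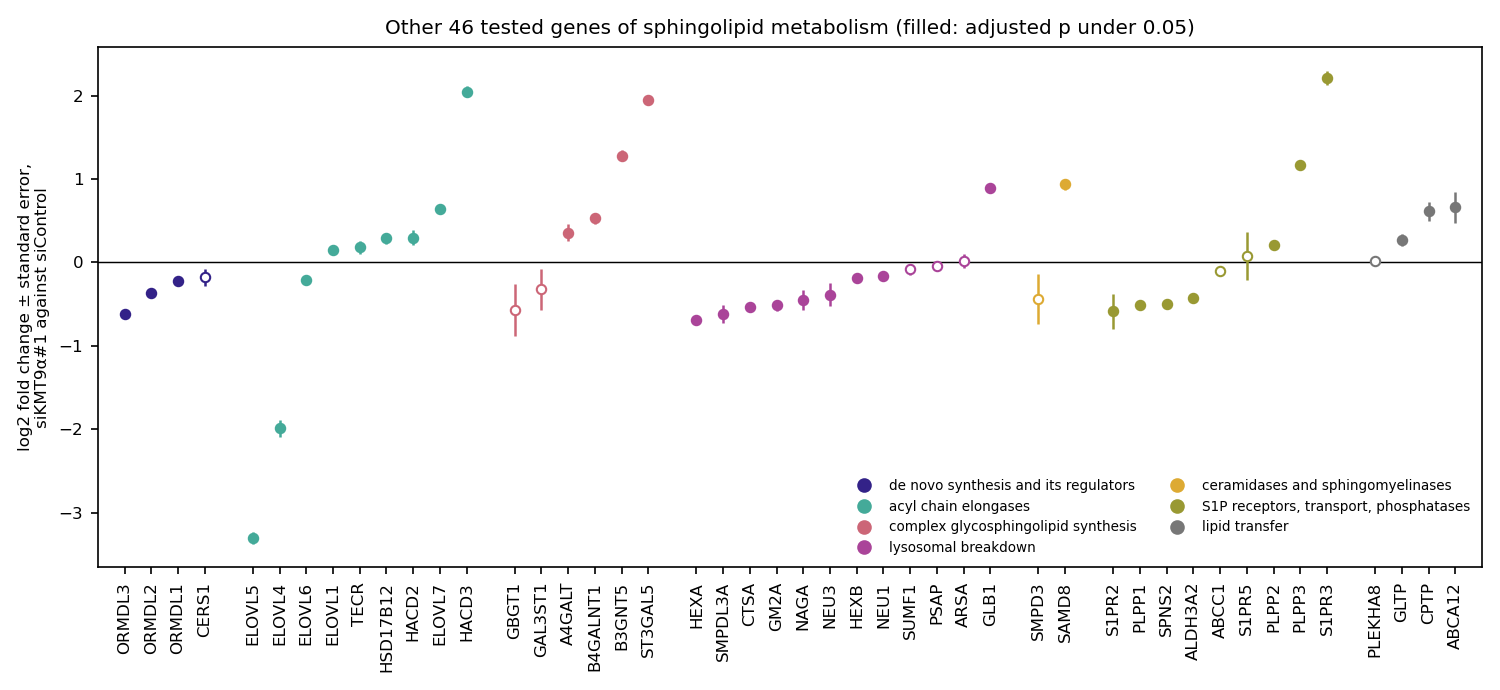
Log2 fold change of siKMT9α#1 against siControl with its standard error for the 46 further sphingolipid genes tested, grouped by role and ordered by value, filled where the adjusted p was under 0.05. ELOVL5 is the lowest at -3.30 and S1PR3 the highest at 2.21. Of the 12 genes listed under lysosomal breakdown, 8 are filled below 0, where 38.5% of all genes tested were lower.

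Among the 5 receptors of sphingosine phosphate, S1PR3 had the largest change, from 13.3, 10.7 and 11.2 CPM with siControl to 56.8, 59.2 and 48.7 CPM with siKMT9α#1. It was 4.63-fold higher (log2 fold change 2.21, SE 0.09, adjusted p = 3.54e-14), without overlap. S1PR2 was lower, from 2.13 ± 0.25 to 1.398 ± 0.11 CPM (SD, n = 3 each, log2 fold change -0.59, adjusted p = 0.0156). S1PR5, at 0.872 ± 0.23 and 0.928 ± 0.17 CPM, was not called (log2 fold change 0.08, adjusted p = 0.82), S1PR1 had too few counts to be tested, and S1PR4 had 0 counts in every sample. SPNS2, which exports sphingosine phosphate, was lower (log2 fold change -0.49, adjusted p = 4.66e-07).

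**Figure D5:**
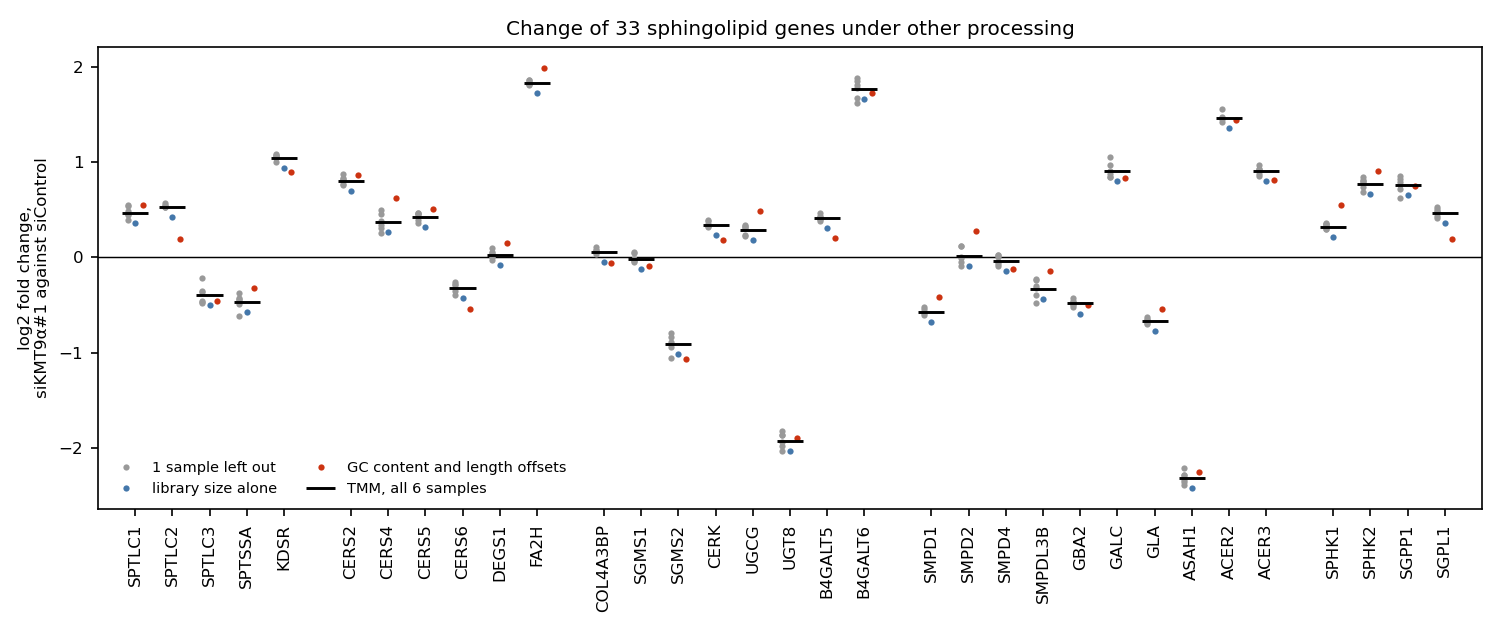
Log2 fold change of the 33 tested genes in pathway order with all 6 samples and TMM (black line), with each sample left out (grey), with library size alone (blue) and with GC content and length offsets (red). ASAH1, UGT8, FA2H, B4GALT6, ACER2 and KDSR keep their side of 0 at every setting drawn, while SPTLC2, B4GALT5 and SGPL1 move towards 0 with the offsets.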

How the data were processed

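The deposited values are estimated counts per RefSeq transcript and sample, not normalized, which the authors made by aligning to hg19 with STAR and counting with HOMER. They come in steps of 0.5, and 36.4% are not whole. Beside them the authors deposited a fold change (a ratio), p-values and adjusted p-values from edgeR, and a transcript length. The fold changes and p-values were not used. Neither edgeR's test nor its normalization, nor the strand setting of the counting, is given in the sources used here. Of the table, 1182 lines without symbol and counts were left out.

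Counts were rounded and fitted over all 6 samples in edgeR 4.0.16 (R 4.3.3): TMM, filterByExpr, the quasi-likelihood F test (two-sided) and Benjamini-Hochberg adjustment over 13877 genes. The SE is the log2 fold change divided by the square root of F. The fit was tested on simulated data. Depth was 13740097 to 19832395.5 counts per sample. GC contents, 3′ UTRs and sites came from a GRCh37 annotation (98.4% of tested genes had a GC content), and promoters from RefSeq.

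The labels call the samples biological replicates without saying whether they were separate cultures, so p-values measure the spread between these samples. The 35 genes and the lists were chosen with earlier results of these data known. Values per sample are given for genes called with a log2 fold change of at least 1 in size and for the enzymes of the main steps. Of the further list, the receptors and the called changes that were highest (3) and lowest (2) are named. The rule asked for 3 of the lowest, and 1 result under it is not reported here. SMPDL3B, SPTLC1 and SMPD4 transcripts, ORMDL1, ORMDL2, ORMDL3, GLB1 and SPNS2 were named after their values were seen. Alternatives were scaling by library size or by RLE, filters of none or of 10 counts per sample, DESeq2 1.42.0, the exact and likelihood-ratio tests of edgeR, every transcript, a replicate block, GC content and length offsets, and each sample left out.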

Additional observations from a re-analysis of the deposited data

How the results depend on the processing

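Across the alternatives, 25 to 28 of the 33 tested genes were called, where 59.5% to 76.9% of all genes tested were called. Of 560 pairs of gene and alternative, 534 kept their direction and their side of the threshold. The call of CERS4 was lost in 6, with adjusted p from 0.0586 to 0.203, and DEGS1 and SMPD4 were called with GC content and length offsets, with or without the block. The count past the threshold of the study was 10, but 22 with no filter, 22 with edgeR's likelihood-ratio test, 22 with its exact test, 18 with DESeq2, 18 with GC content and length offsets, 19 with those offsets and the block, and 7 to 16 with each sample left out, 16 without siControl replicate 1. Over all genes tested it was 3357 of 13877, and 6070 of 18751 with no filter. It was 5962 with the likelihood-ratio test, 5924 with the exact test and 4773 with DESeq2. Of 13652 genes, 4336 passed with the offsets and 5084 with the offsets and the block. With each sample left out it was 2326 to 4085. The cause was not tested.

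Directions reversed only for genes that were not called. With library size alone, DEGS1 was at -0.0797, COL4A3BP at -0.0446 and SMPD2 at -0.0939. SMPD2 was at -0.00208 with at least 10 counts in every sample, and COL4A3BP was at -0.0558 with the offsets and at -0.0556 with the offsets and the block. With each sample left out, DEGS1 ranged from -0.0236 to 0.0992, SGMS1 from -0.0518 to 0.05255, SMPD2 from -0.0866 to 0.121 and SMPD4 from -0.0861 to 0.0256.

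No source states that same-numbered samples were paired, so the main fit had no replicate block. Deviations from the group means had correlations of -0.079, 0.022 and -0.08 between same-numbered samples. With 3 samples per group, these values cannot show whether samples were paired. In the fit with a replicate block, 26 genes were called, 18 higher and 8 lower, and 7 passed the threshold of the study. Over all genes tested in that fit, 73.7% were called and 2342 of 13877 passed that threshold. SMPD2 was at -0.0070 with the block. Depth limited DEGS2 and SGPP2, which were not tested, and SPTLC3, UGT8, SMPDL3B, CERS4, SMPD2 and ACER2, which had the 6 widest standard errors, from 0.30 down to 0.14.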
